A study of Mus musculus with 1111 samples.

Results

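The genes described here are 10 components of lysosomal nutrient sensing, taken by symbol from the 35583 genes of each deposited table: Mtor, Rptor, Rheb, Rraga, Rragc, Lamtor1, Flcn, Tfeb, Tfe3 and Mitf. They were measured by Smart-seq2, which makes a full-length cDNA library from each sorted cell, in brain microglia of mice aged 3 months. The mice had received plasma proteins coupled to the fluorescent dye NHS-Atto647N 20 hours before the cells were isolated, and the cells were sorted as plasma none, plasma low or plasma high by the plasma signal inside them. All 3 groups came from injected mice, so plasma none stands for cells with no plasma signal and not for mice without plasma. The filter left 987 cells, of which 35.1% were plasma none, 35.6% were plasma low and 29.4% (290 cells) were plasma high. Neither strain, sex nor genotype was given.

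Because the labels name no animal, a group is 1 sample of cells, and no test between groups was possible. Each label carries a number from 1 to 3 after the letters TH, whose meaning is not stated. Reads were summed by group within each TH number, which gave 9 sums, and levels are CPM, the reads of a gene scaled to the sum of reads in all genes. Errors are the SD over the 3 TH numbers (n = 3), and whether this includes a spread between animals is not stated. Plasma none cells sat in plate columns 1 to 8, plasma low cells in columns 9 to 16 and plasma high cells in columns 17 to 23, so group and plate position cannot be told apart. Summed reads were 80757827 for plasma none, 98868490 for plasma low and 102428398 for plasma high, and the median per cell was 207429, 229931 and 267143 reads. Plasma high cells were deeper than plasma none cells in every TH number. The summed level of 8 microglial marker genes was 45390 to 54370 CPM over the 9 sums, every cell had at least 3 of these markers, and all 6 neutrophil markers were at 0. Cells with 3 or more markers of another type numbered 1 in plasma none (red cells) and 1 in plasma high (oligodendrocytes).

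The lysosome is both the place where engulfed protein is broken down and the platform on which cells sense the amino acids released. There the Rag GTPases, held on the membrane by the Ragulator complex, recruit the kinase complex mTORC1 when amino acids are plentiful, and the small GTPase Rheb then switches the kinase on. mTORC1 also phosphorylates the transcription factors TFEB, TFE3 and MITF and so keeps them in the cytoplasm. When it is inactive they enter the nucleus and bind CLEAR elements, E-box motifs in front of genes for lysosomal and autophagy proteins. Much of this control acts on proteins, through nucleotide loading, phosphorylation and location, none of which was measured here. The values below are transcript levels.

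Because these factors bind E-boxes, the letters CACGTG were searched in the promoter windows of the members themselves (RefSeq, build GRCm38.p6, 250 bases before to 50 after each start). This motif reads the same on both strands, as does the longer form TCACGTGA, which contains it and was searched too. All 10 members had a window there, 15 windows in all. The E-box stood in 3 members, Rheb, Rragc and Lamtor1, and each is shown 5′ to 3′ on the gene's strand with the motif in capitals.
Rheb: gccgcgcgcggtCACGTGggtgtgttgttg
Rragc: ggtgattccgggCACGTGatagtaccactt
Lamtor1: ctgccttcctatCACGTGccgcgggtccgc
The Rheb stretch is chr5:24842440-24842469 on the minus strand, begins its motif 96 bases before the RefSeq start and lies in a non-coding exon of a longer GENCODE transcript. The Rragc stretch is chr4:123917309-123917338 on the plus strand, upstream of the start. The Lamtor1 stretch is chr7:101905757-101905786 on the plus strand, with the motif 68 bases before the start, and both lie outside the exons of their genes. Of all 32851 windows, 7.15% held CACGTG and 0.974% held TCACGTGA, and no member held the longer form. Counted by gene, 8.09% of 27025 genes held CACGTG in a window. Among 23 lysosomal genes known as CLEAR targets of TFEB, 16 had a promoter window and 11 of these held CACGTG. Of autophagy targets of TFEB with a window, 0 of 7 held it, and of MITF and TFE3 targets in myeloid cells, 1 of 6. A match is a description of the letters, not a bound site.

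Set side by side per length of merged exons, the lysosomal platform was the most abundant of the 3 functional groups. Flcn stood at 39.1 ± 14.02 CPM per kb (SD over the 9 sums), followed by Lamtor1 at 31.4 ± 4.72, Rraga at 30.3 ± 16.6 and Rragc at 30.1 ± 6.85 CPM per kb. Next came Rheb at 15.2 ± 2.38 and Tfe3 at 13.8 ± 3.27 CPM per kb. Mitf (6.10 ± 2.73), Tfeb (5.34 ± 2.10) and Rptor (5.01 ± 1.40 CPM per kb) were lower, and Mtor was last at 0.552 ± 0.844 CPM per kb. The ranges of neighbours in this order overlapped at every step except from Rragc to Rheb, whose ranges over the 9 sums did not meet. Ranked per length among the 5761 genes kept by a filter on low values, Flcn lay at percentile 79.7 and Rptor at percentile 11.1. The order differed by CPM among protein-coding genes within 20% of each member's exon length and at 5 CPM or more. There Flcn was at percentile 90.5, Rheb at 85.03, Tfe3 at 84.9, Rragc at 81.8, Lamtor1 at 81.3, Rraga at 64.2 and Rptor at 63.25. Mitf was at 55.8 and Tfeb at 47.7, and Mtor is given below.

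**Figure D1:**
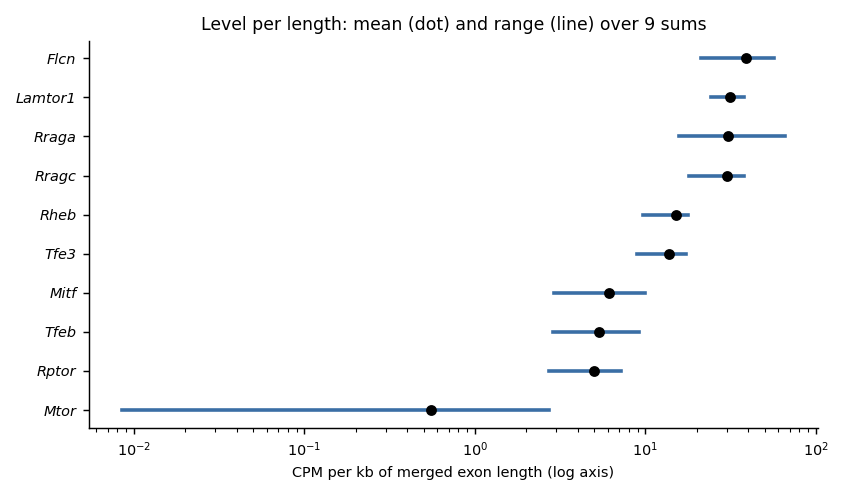
Level of each member per kb of merged exon length (horizontal log axis, CPM per kb), with the mean over 9 sums of group and TH number as a dot and the lowest to highest sum as a line. Flcn, Lamtor1, Rraga and Rragc are between 30.1 and 39.1 CPM per kb on average, and Mtor is lowest with the widest range on this scale.

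Plasma high was compared with plasma none, which asks whether the transcripts of nutrient sensing differ with plasma uptake. The ratio of every member was above 0 in some TH numbers and below 0 in others. The filter on low values kept 5761 genes whose mean reached 20 CPM and which were read in 10% or more of the cells in 1 group, and 9 of the 10 members passed it, all but Mtor. A gene met the size rule when its mean log2 ratio of CPM + 1 was at least 1 in size with the same sign in 3 of 3 TH numbers. The ratio of plasma high over plasma none is called the high-to-none ratio here, and that of plasma low over plasma none the low-to-none ratio. None of the 9 met the rule, against 5.24% of all genes tested. Over all genes tested, 18.4% were higher and 13.7% were lower in 3 of 3 TH numbers, and the groups did not overlap for 13.7%. For every member the values of the 3 groups overlapped.

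**Figure D2:**
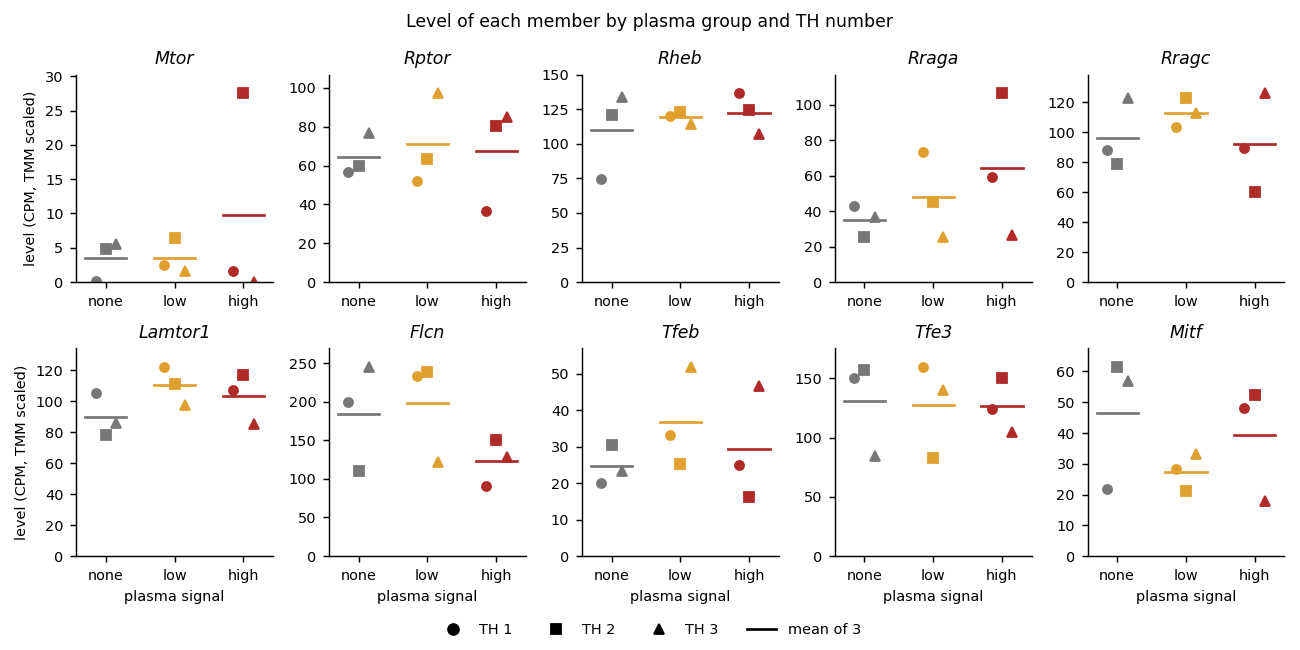
Level of each member in CPM (vertical axis from 0, its own scale for each gene) by plasma group, with each TH number as a point and the mean of 3 as a line. The groups overlap for all 10 members, and the single high Mtor point is plasma high in TH 2, at 27.5 CPM.

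Mtor, the gene of the kinase itself (chr4:148448611-148557683, plus strand, ENSMUSG00000028991), was close to the limit of detection. Its level in TH 1, 2 and 3 was 0.138, 4.80 and 5.51 CPM in plasma none, 2.48, 6.45 and 1.65 CPM in plasma low, and 1.64, 27.5 and 0.0862 CPM in plasma high. The sum of plasma high in TH 2 stood far above the other 8. Only 34 of the 987 cells had an Mtor read, and the 3 cells with the most reads held 98.1% of the 310 reads in plasma none, 67.6% of the 410 in plasma low and 85.3% of the 1249 in plasma high. Its high-to-none log2 ratio was 0.31 ± 2.56, with values of 1.21, 2.30 and -2.58 in the 3 TH numbers. Among the 1205 protein-coding genes within 20% of its exon length and at 5 CPM or more, whose median was 40.6 CPM, Mtor lay at percentile 1.16. Its mean over the 9 sums, 5.58 CPM, was just above that cut, which by itself places it near the bottom of this set. Among all 1915 protein-coding genes of such length, without the cut, it lay at percentile 37.8. The locus overlaps 3 other annotated genes, and how the counting treated shared reads is not stated.

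Rptor encodes raptor, the scaffold that binds mTORC1 to its substrates (chr11:119602905-119899576, plus strand). It was read in 23.7% of cells, far more than Mtor, and the 2 were read together in 4 cells when every cell was thinned to 50000 reads. The level was 56.6, 59.6 and 76.8 CPM in plasma none, 52.04, 63.4 and 97.1 CPM in plasma low and 36.4, 80.2 and 85.2 CPM in plasma high, in the order of TH 1, 2 and 3. TH 3 was the highest of each group, and the groups overlapped. Its high-to-none log2 ratio was -0.018 ± 0.54, and its low-to-none log2 ratio was 0.10 ± 0.23. An antisense gene, Rptoros, overlaps Rptor, and without a stated use of strand the reads of this pair cannot be told apart.

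Rheb, the GTPase that activates mTORC1 (chr5:24802823-24842624, minus strand), was nearly level across groups. Its values were 74.2, 120.8 and 133.8 CPM in plasma none, 119.9, 122.7 and 114.5 CPM in plasma low, and 136.4, 124.1 and 106.9 CPM in plasma high. The single low value was plasma none in TH 1, and the other 8 sums lay between 106.9 and 136.4 CPM. Without that TH number the high-to-none log2 ratio turned from 0.20 ± 0.61 to -0.14.

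The lysosomal platform was represented by 4 members. Rraga encodes RagA (chr4:86575668-86577285, plus strand), a gene of a single exon. It was read at 43.1, 25.5 and 36.5 CPM in plasma none, 73.3, 45.1 and 25.4 CPM in plasma low, and 59.2, 106.5 and 26.8 CPM in plasma high. Of all members it had the largest mean high-to-none log2 ratio, 0.68 ± 1.24, carried by TH 2. Within plasma high, 1 cell held 24.5% of its 7224 reads, and without TH 2 the ratio was 0.0099. The pooled level of 70.5 CPM in plasma high had an exact Poisson interval of 68.9 to 72.2 CPM, which covers counting error only and is far narrower than the spread over TH numbers. Rragb, its close paralog, was listed at 0 in all 9 sums, and Rragd was at or below 0.0782 CPM on average in every group.

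Rragc encodes RagC, the partner of RagA in the heterodimer (chr4:123917446-123936997, plus strand). It was read at 88.03, 78.7 and 122.9 CPM in plasma none, 103.8, 123.1 and 112.8 CPM in plasma low, and 89.9, 60.2 and 126.1 CPM in plasma high. Plasma high held both the lowest and the highest of the 9 sums. Its high-to-none log2 ratio was -0.10 ± 0.24 and its low-to-none ratio 0.25 ± 0.38. In cells thinned to 50000 reads, 9.63% had a read of Rraga, 17.9% had a read of Rragc and 16 cells had both.

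Lamtor1, the Ragulator subunit that anchors the complex in the lysosomal membrane (chr7:101905904-101926675, plus strand), was the steadiest platform gene per sum. Its level was 105.02, 78.1 and 85.8 CPM in plasma none, 121.8, 111.3 and 97.4 CPM in plasma low, and 106.9, 116.6 and 85.4 CPM in plasma high. Plasma low exceeded plasma none in each TH number, by 0.21, 0.51 and 0.18 on the log2 scale, a mean of 0.30 ± 0.18, although the groups overlapped. It was the 1 member of the 9 tested that was higher in 3 of 3 TH numbers in that comparison, where 16.5% of all genes tested were. The high-to-none log2 ratio was 0.20 ± 0.33 and rested on TH 2, since it was 0.0093 without it. Lrrc51 and Tomt overlap Lamtor1 on the opposite strand.

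Flcn encodes folliculin, which acts on RagC or RagD together with its partners Fnip1 and Fnip2 and is needed for TFEB to be held in the cytoplasm (chr11:59791408-59810016, minus strand). It was read in 33.1% of cells, the largest share of the members without thinning. With each cell thinned to 50000 reads, Lamtor1 (31.003%) and Tfe3 (30.3%) were above Flcn (30.1%). Its level was 199.2, 110.5 and 244.7 CPM in plasma none, 233.8, 238.8 and 122.4 CPM in plasma low, and 91.1, 151.1 and 128.3 CPM in plasma high. Plasma high had no sum above 151.1 CPM, while plasma none and plasma low each had 1 sum below that value. The high-to-none log2 ratio was -1.12, 0.45 and -0.93 in TH 1, 2 and 3, a mean of -0.53 ± 0.86. Against plasma low it was -0.65 ± 0.71. TH 2 ran against the other 2 in the comparison with plasma none, and without it the mean was -1.02. With each TH number left out in turn, that mean ranged from -1.02 to -0.24. Over the 9 sums and 6504 genes, the level of Flcn was most like that of Casp2 (Pearson r 0.93 of log2 values), Ccdc115 (0.896) and Armc10 (0.876), given as a description with 3 sums of each group sharing a TH number with those of the others.

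Among the transcription factors, Tfe3 (chrX:7762560-7775202, plus strand) was the most abundant and differed least between groups on average. It was read at 150.2, 156.6 and 84.5 CPM in plasma none, 159.2, 83.1 and 139.7 CPM in plasma low, and 123.9, 149.9 and 105.04 CPM in plasma high. Each group spanned much of the same range. Its high-to-none log2 ratio was -0.0092 ± 0.30 and its low-to-none ratio -0.034 ± 0.82.

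Tfeb (chr17:47737030-47792419, plus strand), the best known regulator of lysosomal genes, stood at 20.1, 30.5 and 23.3 CPM in plasma none, 33.3, 25.3 and 51.8 CPM in plasma low, and 25.1, 16.3 and 46.6 CPM in plasma high. TH 3 gave the highest values in both plasma-positive groups. Plasma high was below plasma low in each TH number, by log2 ratios of -0.39, -0.61 and -0.15, a mean of -0.38 ± 0.23, with overlapping groups. In that comparison it was the 1 member of 9 that was lower in 3 of 3 TH numbers, where 13.1% of all genes tested were. Against plasma none, plasma low was at 0.52 ± 0.71 and plasma high at 0.13 ± 0.93, both with mixed signs.

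Mitf (chr6:97807052-98021349, plus strand), the factor best known from pigment cells and osteoclasts, was read at 21.7, 61.4 and 56.9 CPM in plasma none, 28.2, 21.02 and 33.02 CPM in plasma low, and 48.01, 52.2 and 17.9 CPM in plasma high. The lowest sum was in plasma high and the highest in plasma none. Its log2 ratio was -0.24 ± 1.36 for plasma high and -0.64 ± 0.94 for plasma low against plasma none. A single cell held 18.4% to 20.5% of its reads in each group.

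Per length, Tfe3 made up 54.3% ± 14.6 of the summed level of the 3 factors in plasma none, with 55.6% ± 5.94 for plasma low and 53.9% ± 4.396 for plasma high. Tfeb made up 16.8% ± 1.55, 26.2% ± 4.84 and 21.5% ± 13.6, and Mitf 28.9% ± 13.1, 18.2% ± 1.84 and 24.6% ± 10.2. In each TH number the share of Tfeb was higher in plasma low than in plasma none (21.3% against 15.3%, 26.5% against 16.7% and 30.9% against 18.3%), and the values of these groups did not overlap. In TH 2 the level of Tfeb itself was lower in plasma low (log2 ratio -0.26), while Tfe3 (-0.91) and Mitf (-1.50) were lower by more. This share was not compared over other genes. In cells thinned to 50000 reads, reads of exactly 2 of the 3 factors were found in 13 cells of plasma none, or 3.76% (95% exact binomial interval 2.02 to 6.34), in 27 cells of plasma low, or 7.69% (5.13 to 10.99), and in 26 cells of plasma high, or 8.97% (5.94 to 12.9). In each group 1 cell had all 3. These intervals pool cells over TH numbers and cover counting error only. Cells of plasma low and plasma high also had more genes of any kind, as given below, and the part of this was not tested. None of the factors was read in 58.96%, 54.4% and 54.1% of the cells.

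The share of cells with a read was compared after thinning each cell to 50000 reads, since deeper cells show more genes. Lamtor1 was read in 26.6% of plasma none cells (95% exact binomial interval 22.01 to 31.6), 32.5% of plasma low (27.6 to 37.7) and 34.5% of plasma high (29.02 to 40.3). For Flcn the shares were 29.2% (24.5 to 34.3), 34.8% (29.8 to 39.99) and 25.5% (20.6 to 30.9). Rragc had 15.03% (11.4 to 19.2), 21.7% (17.5 to 26.3) and 16.9% (12.8 to 21.7), and Tfeb had 7.51% (4.97 to 10.8), 12.3% (9.01 to 16.1) and 10.7% (7.38 to 14.8). Every interval of plasma none overlapped those of the other groups for all 10 members, and unthinned shares were 28.03%, 34.2% and 35.9% for Lamtor1 and 32.4%, 37.6% and 28.6% for Flcn. A cell of plasma none had reads of 1.62 members on average, against 2.00 in plasma low and 1.89 in plasma high, and 14.2%, 15.95% and 15.9% of cells had a read of none. In TH 1, 2 and 3 the mean was 1.78, 1.43 and 1.67 members in plasma none, 2.48, 1.59 and 1.93 in plasma low, and 2.07, 1.83 and 1.76 in plasma high. Plasma low and plasma high were above plasma none in each TH number, and so was the number of genes of any kind read per cell. Its median, without thinning, was 1729.5, 1631 and 1728 genes in plasma none, 2213, 1768 and 2016.5 genes in plasma low, and 2045, 1882.5 and 1889 genes in plasma high. Its part in the count of members was not tested.

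**Figure D3:**
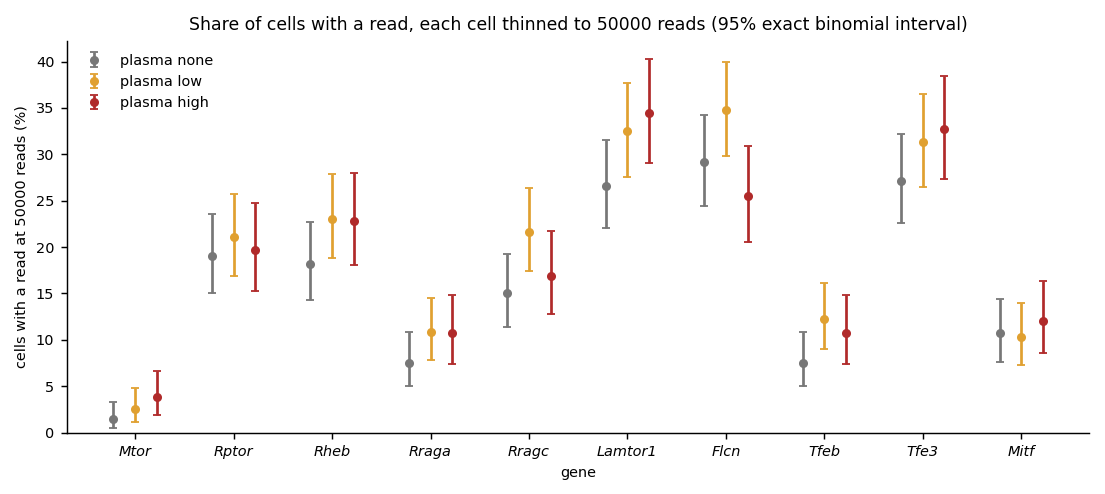
Share of cells with at least 1 read of each member (vertical axis, %), each cell thinned to 50000 reads, by plasma group with 95% exact binomial intervals that cover counting error only. The intervals of the groups overlap for every member; for Lamtor1 the shares are 26.6%, 32.5% and 34.5%.

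For plasma low against plasma none, the members' mean log2 ratios ran from -0.64 for Mitf to 0.52 for Tfeb, 8 of 10 were above 0 against 52.6% of the genes at 5 CPM or more, and the median was 0.19 against 0.033 over these 10445 genes. None met the size rule, which 2.88% of all genes tested did. Lower in 3 of 3 TH numbers were 0 of 9 members against 11.8% of genes, and groups that did not overlap were found for 0 of 9 against 9.55%. For plasma high against plasma low, the ratios ran from -0.65 for Flcn to 0.39 for Mitf, 5 of 10 members were above 0 against 48.8% of such genes, and the median was -0.039 against -0.013 over all such genes. The size rule was met by 0 of 9 members against 3.21% of genes, 0 of 9 were higher in 3 of 3 TH numbers against 13.9%, and 0 of 9 had groups that did not overlap against 9.63%. The comparisons share groups and are not independent. For plasma high against plasma none the median over the members was 0.063, against 0.026 over all such genes, and 5 of 10 were above 0 against 51.8% of genes.

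**Figure D4:**
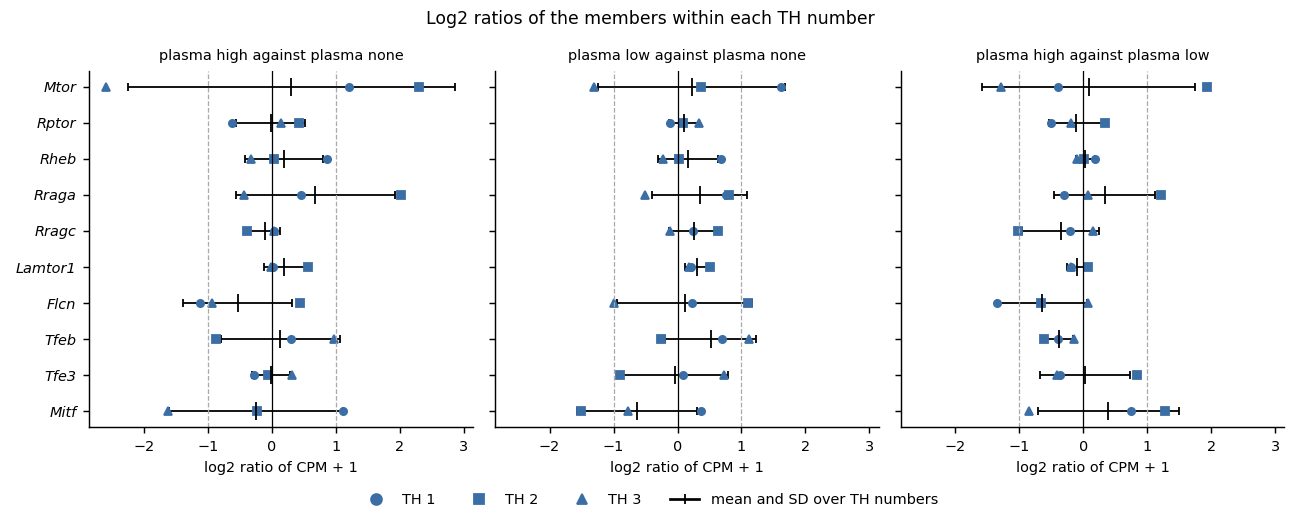
Log2 ratio of CPM + 1 of each member (horizontal axis) in 3 comparisons, with each TH number as a point and the mean and SD over TH numbers as a bar; dashed lines mark a ratio of 1 in size. In plasma high against plasma none, each member has points on both sides of 0.

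Other genes of the pathway were described in lists, and 110 of them reached 5 CPM. In plasma high against plasma none, 64 were higher and 46 lower, with 23 higher and 13 lower in 3 of 3 TH numbers, and their median log2 ratio was 0.10. Over all 10445 genes at this level, 51.8% were higher, 15.3% were higher and 14.02% lower in 3 of 3 TH numbers. The size rule was met by 4 of the 110 (3.64%), Atp6v1a, Neu1, Nprl3 and Slc38a7, a share near the 2.89% of all genes at this level.

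Of 10 Rag, Ragulator and folliculin partners, 8 reached 5 CPM and 7 of these had a mean high-to-none log2 ratio above 0, 3 of them in 3 of 3 TH numbers, with a median of 0.44. Slc38a9, an arginine sensor of the lysosomal membrane, was level at 0.0031 ± 0.998 with mixed signs. The medians within TH 1, 2 and 3 were 0.75, 0.41 and 0.11. For plasma low all 8 had a mean low-to-none log2 ratio above 0, 4 of them in 3 of 3 TH numbers, and the median was 0.24, where 52.6% of all genes at this level were higher and 14.42% were in 3 of 3 TH numbers. None of the 8 met the size rule in either comparison. Lamtor4, another Ragulator subunit, was at 46.4, 52.9 and 38.1 CPM in plasma none and 81.2, 74.3 and 53.4 CPM in plasma high, a log2 ratio of 0.58 ± 0.18 with groups that did not overlap, and of 0.38 with each cell thinned to 50000 reads. Fnip1, the partner of folliculin, went from 74.7 ± 18.8 to 126.7 ± 54.4 CPM (log2 ratio 0.68 ± 0.41, higher in 3 of 3), and 1 cell held 22.4% of its plasma high reads. Fnip2 had the largest ratio, 0.82 ± 1.20 with mixed signs, and Pip4p1, which recruits the motor adaptor for lysosome transport, the lowest at -0.043 ± 0.074. Lamtor4 and Fnip1 were chosen after their values were seen.

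Among the upstream inputs, the GATOR and KICSTOR genes, which pass the amino acid signal to the Rag GTPases, split evenly, with 5 of 10 higher in plasma high and a median of 0.037. Nprl3, a subunit of the GATOR1 complex that inactivates RagA, met the size rule. It was at 31.8, 50.3 and 33.3 CPM in plasma none, 24.1, 24.6 and 22.2 CPM in plasma low, and 7.12, 20.0 and 22.9 CPM in plasma high, a high-to-none log2 ratio of -1.27 ± 0.75. All 3 sums of plasma none lay above all sums of the other groups, and it was read in only 26 cells of plasma high and 38 of plasma none. Without TH 1 its ratio was -0.90, below the size rule. Depdc5 and Nprl2, the other GATOR1 subunits, did not pass the filter and had ratios above 0 on average. They were at 0.66 ± 0.45 and, with mixed signs, 0.43 ± 0.68. Seh1l, of GATOR2, had the largest ratio above 0 among those at 20 CPM or more, 0.59 ± 0.30, while the less abundant Itfg2 was at 0.82 ± 0.32. Of 4 cytosolic amino acid sensors at 5 CPM, 1 was higher, Sesn1, a sestrin induced by p53, at 192.2, 219.7 and 270.7 CPM in plasma none and 249.9, 309.7 and 310.7 CPM in plasma high (0.36 ± 0.15).

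The TSC complex, which switches Rheb off, had all 3 genes lower in plasma high on average, with a median of -0.14, but the median was -0.93, -1.09 and 1.59 in TH 1, 2 and 3, and no gene was lower in 3 of 3. Insulin, AKT and AMPK genes had 3 of 9 higher, with a median of -0.081. Pdpk1, which phosphorylates AKT, had the lowest ratio among those at 20 CPM or more, -0.83 ± 1.12 with the same sign in 3 of 3 TH numbers. Other subunits of mTORC1 and mTORC2 had 5 of 8 higher and a median of 0.31. Tti1, a chaperone factor for the kinase, was higher in 3 of 3 TH numbers (1.83 ± 0.22) but did not pass the filter, since only 16, 32 and 19 cells of plasma none, low and high had a read of it, and 1 cell held 61.2% of its plasma high reads. Telo2, its partner, was at -0.46 ± 0.86.

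Downstream of the kinase, 8 of 12 substrates and effectors were higher in plasma high, 3 of them in 3 of 3 TH numbers, with a median of 0.21. Atg13, which mTORC1 inhibits to hold back autophagy, had the largest ratio (0.78 ± 0.45) but was read in too few cells to pass the filter (13, 24 and 19 cells of plasma none, low and high), and Rps6kb2, an S6 kinase gene, the lowest (-0.85 ± 1.32). Without the top cell of each sum the ratio of Atg13 was 1.26. Regulators of TFEB were higher for 8 of 12, with a median of 0.16. Map4k3, a kinase that acts on TFEB, was at 0.42 ± 1.79 and Mcoln1, the lysosomal calcium channel that feeds calcineurin, at -0.87 ± 0.69, lower in 3 of 3 TH numbers (50.8 CPM in plasma none and 30.1 CPM in plasma high on average). The ratio of Mcoln1 was -0.16, -1.53 and -0.91 in TH 1, 2 and 3. It ranged from -1.22 to -0.53 with each TH number left out in turn. Tfec, the remaining relative of TFEB, was read in 0.289% of plasma none cells and in no other cell.

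Of 12 amino acid transporters, 9 were lower in plasma high on average, 3 were lower and 2 higher in 3 of 3 TH numbers, and the median was -0.34, or -0.038 without TH 2. Slc38a7, which exports glutamine from the lysosome, met the size rule. Its level was 55.5, 61.6 and 78.97 CPM in plasma none, 38.97, 37.6 and 82.2 CPM in plasma low, and 16.6, 37.7 and 23.9 CPM in plasma high, a high-to-none log2 ratio of -1.35 ± 0.57. The highest plasma high sum was below the lowest of plasma none. Ctns, the lysosomal cystine exporter, was at 83.4, 81.98 and 124.96 CPM in plasma none and 56.99, 51.2 and 73.2 CPM in plasma high (-0.66 ± 0.11), also without overlap, and was chosen after its values were seen. Its ratio was -0.37 with the outermost wells of the plate left out and -0.96 without the top cell of each sum. Slc36a4 had the largest ratio above 0, 1.42 ± 1.21, but did not pass the filter, with a read in 13, 18 and 27 cells of plasma none, low and high.

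The CLEAR lysosomal targets of TFEB were higher in plasma high on average for 18 of 22 genes, 6 higher and 2 lower in 3 of 3 TH numbers, with a median of 0.16 and medians of 0.094, 0.17 and 0.14 in TH 1, 2 and 3. In plasma low 15 of 22 were higher, with a median of 0.12. Atp6v1a, the catalytic subunit of the proton pump that acidifies the lysosome, met the size rule in both comparisons with plasma none. It was at 22.2, 33.2 and 29.6 CPM in plasma none, 113.1, 63.1 and 55.3 CPM in plasma low, and 145.8, 121.2 and 96.3 CPM in plasma high, log2 ratios of 1.36 ± 0.81 and 2.06 ± 0.53. Plasma none lay below every other sum. In plasma low against plasma none, Atp6v1a was at 0.89 without TH 1, below the size rule. Neu1, a lysosomal sialidase, met the size rule in the other direction, at 73.8, 128.1 and 87.1 CPM in plasma none and 54.4, 25.2 and 40.2 CPM in plasma high (-1.28 ± 0.95). Without TH 2 its ratio was -0.77, below the size rule. Lysosomal genes of high level had smaller ratios, such as the protease gene Ctsb (0.42 ± 0.071) and the membrane protein gene Lamp1 (0.34 ± 0.094), both chosen after their values were seen.

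Autophagy targets of TFEB were evenly split, with 4 of 8 higher and a median of -0.12. Gabarapl1, of the family that coats autophagosomes, was at 0.95 ± 1.01 and Vps11, a tethering subunit, at -0.50 ± 0.31, lower in 3 of 3 TH numbers. Of 7 targets of MITF and TFE3 in myeloid cells, 3 reached 5 CPM. Cd68, a lysosomal membrane glycoprotein of macrophages, was higher in 3 of 3 TH numbers (0.20 ± 0.099), Mcoln1 was lower as given above, and Ostm1, a partner of a lysosomal chloride transporter, was at 0.16 ± 0.545 with mixed signs, while Gpnmb, Acp5, Ctsk and Atp6v0d2 were at 0 in all groups. Over 15 alternatives the ratio of Cd68 ranged from 0.11 to 0.32, the latter with the outermost wells left out.

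**Figure D5:**
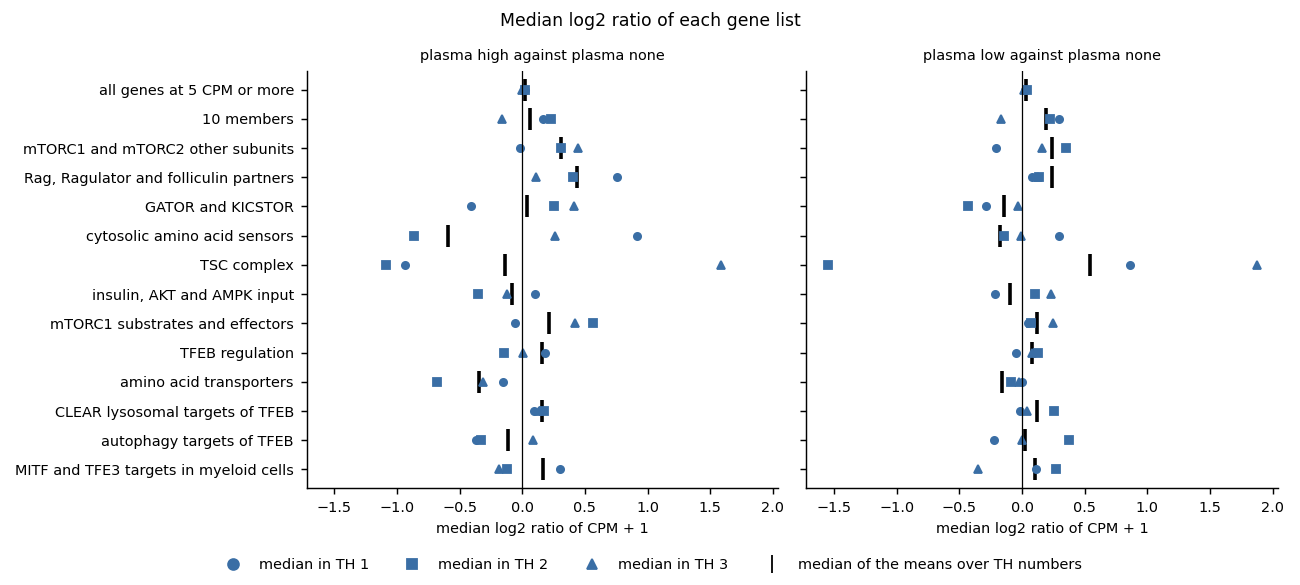
Median log2 ratio of CPM + 1 (horizontal axis) over the genes of each list at 5 CPM or more, in plasma high and in plasma low against plasma none; points are the medians within each TH number, ticks the median of the genes' means. The tick of the Rag, Ragulator and folliculin partners is at 0.44 and 0.24, that of the 10 members at 0.063 and 0.19, and that of all genes at 0.026 and 0.033.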

How the data were processed

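The authors deposited a count for each gene in each cell. The deposited values of 1 column were read under the unit of expected counts, because 2 of them were not whole, and were rounded. Per the submitters' processing notes, bcl2fastq, Trim Galore, STAR 2.5.3a and Seurat were used with build mm10; their roles, how reads were counted and whether strand was used are not given in the sources used here. Per the file headers, TH 2 and TH 3 columns came from alignments reduced to top hits; those of TH 1 carry no such note. Of 1111 labelled cells, 1045 were matched to a column by well and TH number, 66 were not analysed here, and 987 passed (at least 50000 reads in genes and 500 genes). Cells were sorted singly, so no doublet caller was run.

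Reads were summed by group and TH number, scaled with TMM factors (edgeR 4.0.16, R 4.3.3) and compared as log2(CPM + 1) within each TH number. This pseudocount understates ratios of low genes. With 1 sample of cells per group, no test was made. The calculation was tested on simulated data. Reads carry no molecular identifiers, so intervals cover counting error only. Gene lengths and coordinates are from GENCODE M21 (GRCm38), in which 35546 of 35583 IDs were found, 99.6% with identical coordinates.

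Named genes were all members and, in each list, the largest rise and fall at 20 CPM or more in plasma high against plasma none, and any gene that met the size rule; 1 gene that this rule names is not reported here. The members and lists were chosen with earlier results of these data known. Alternatives covered scaling, pseudocount, cell and gene filters, thinning, weighting of cells, wells, cells with other markers, the top cell of each gene, pooling and each TH number left out.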

Additional observations from a re-analysis of the deposited data

How the results depend on the processing

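No paired analysis was possible because each group was 1 sample of cells and no test was fitted; ratios were taken within TH numbers, and without this replicate block, on reads pooled over TH numbers, 1 member (Rraga) instead of 0 met the size rule for plasma high against plasma none. Leaving out 1 TH number in turn gave 0 to 1 members for plasma high against plasma none (Rraga without TH 3, Flcn without TH 2), 0 to 1 for plasma low against plasma none (Mitf without TH 1) and 0 to 2 for plasma high against plasma low (Flcn and Mitf without TH 3); with 2 TH numbers the rule asks for fewer agreeing signs. The other 13, 15 and 15 of 16 alternatives gave 0. The median over the members ranged from -0.047 to 0.099 for plasma high against plasma none, 0.10 to 0.36 for plasma low against plasma none and -0.23 to 0.020 for plasma high against plasma low. Over 15 alternatives, the sign was the same throughout for Rraga, Lamtor1 and Flcn in plasma high against plasma none, for Rragc, Lamtor1, Tfeb and Mitf in plasma low against plasma none, and for Rragc, Lamtor1, Flcn and Tfeb (-0.50 to -0.039) in plasma high against plasma low; each of the other members turned in at least 1. The median of the Rag, Ragulator and folliculin partners was 0.22 to 0.65 for plasma high against plasma none, that of the CLEAR targets 0.12 to 0.22, of the other mTORC1 and mTORC2 subunits 0.030 to 0.55, of substrates and effectors 0.078 to 0.31, of TFEB regulators 0.033 to 0.17 and of amino acid transporters -0.44 to -0.038. The other lists turned sign in at least 1 alternative: GATOR and KICSTOR (-0.63 to 0.30), amino acid sensors (-1.16 to 0.36), the TSC complex (-0.89 to 0.33), insulin, AKT and AMPK genes (-0.16 to 0.069), autophagy targets (-0.22 to 0.051) and MITF and TFE3 targets (-0.15 to 0.25). Mtor was read in 34 cells, so its ratios rest on few cells.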

Other observations

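Wipi1, a phosphoinositide-binding protein of early autophagosomes and a listed TFEB target, was below the filter on low values and was chosen after its values were seen. It was at 22.1, 28.8 and 13.9 CPM in plasma none, 5.64, 23.6 and 1.26 CPM in plasma low and 6.05, 0.808 and 0 CPM in plasma high, in the order of TH 1, 2 and 3. All plasma high sums were below all plasma none sums. Cells with a read numbered 13 for plasma none, 19 for plasma low and 5 for plasma high, so the cells with a read did not follow the order of the levels, and 1 cell held 52.9% of the plasma high reads.

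Slc7a5, the light chain of the leucine transporter LAT1 that supplies mTORC1 with amino acids, was also just under the filter and chosen after its values were seen. Its level was 8.77, 10.1 and 14.8 CPM in plasma none and 13.5, 36.1 and 28.2 CPM in plasma high, a log2 ratio of 1.06 ± 0.61 with the same sign in 3 of 3 TH numbers and overlapping groups. Cells with a read made up 16.8%, 21.9% and 20.7% of plasma none, low and high.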
